A study of Mus musculus with 24 samples.

Results

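The genes described are 8 genes of the red cell membrane and blood groups: Slc4a1, Epb42, Ank1, Sptb, Rhd, Rhag, Kel and the erythroid transcription factor Klf1. They were chosen by name, as every probe whose gene name on the array is one of these 8, which gave 9 probes among 39429 probes and 8 genes among 29742 gene names. Epb42 had 2 probes and the others 1 each. Global gene expression was measured in blood of 24 male C57BL/6J mice, 1 mouse per single-color Agilent mouse array and 6 mice per group. The young unirradiated mice were 2 months old and received 0 Gy, and the young irradiated mice were 2 months old and received 4 Gy of x-rays to the whole body. The old unirradiated mice were 21 months old and received 0 Gy, and the old irradiated mice were 21 months old and received the same 4 Gy. Blood was taken by cardiac puncture 24 h later, and globin RNA was reduced before labeling. The design asks how radiation changes blood RNA at each age and whether age changes that response, for 1 sex, 1 dose and 1 time point.

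The mature red cell keeps its shape because a net of spectrin under the membrane is tied to proteins that cross it. Ankyrin-1 (Ank1) joins beta-spectrin (Sptb) to the anion exchanger band 3 (Slc4a1), protein 4.2 (Epb42) binds band 3 and ankyrin, and the Rh proteins (Rhd, Rhag) and the Kell antigen (Kel) sit in or beside such membrane complexes and carry blood group antigens. Klf1 binds CACCC-type DNA motifs, often near sites for the GATA factor Gata1, and is known for switching on globin, membrane and blood group genes in red cell precursors. Since mature red cells have lost the nucleus and most RNA, red cell transcripts in blood come largely from reticulocytes, the youngest circulating red cells. Which cells gave the signal of each gene was not tested.

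Levels are given as the log2 of the background-subtracted probe intensity minus the median over all non-control spots of the same array, so that 0 is the array median. Levels of different probes cannot be set against each other on arrays. Between 43.9% and 64.4% of spots were well above background on each array, and the number of arrays limits the precision. Of the 24 arrays, Slc4a1, Ank1, Rhd, Rhag and Kel were well above background on 24, the main Epb42 probe on 23, Sptb on 22, the other Epb42 probe on 17 and Klf1 on 16, and no member was saturated. All 8 red cell and reticulocyte markers on the array, globins among them, were well above background on every array. Each group had mice on at least 1 slide of its own. Young mice were on slides 1 to 3 and old mice on slides 4 to 6, which were scanned on different days, so age cannot be told apart from slide and scan day. Nothing in the sources used here ties mice to litters or cages, and p-values measure the spread between single mice.

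Old irradiated mice 4 and 6 stood apart from the rest of their group. Arrays were compared over the 15201 spots well above background on all arrays, centred on the median of those spots. The arrays of mice 4 and 6 differed from the other 4 old irradiated arrays by a root mean square log2 difference of 1.69 to 1.94. It was 0.452 to 0.935 among those 4 and 0.311 between mice 4 and 6. The widest pair within another group was 1.12, in young irradiated mice. Old irradiated results are therefore given with and without mice 4 and 6. Leaving them out was chosen after the data were seen.

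Hepatocyte transcripts were also uneven. The summed level of 12 hepatocyte markers, in multiples of the array median, was 134 to 243 in old unirradiated mice and 139 to 3182 in young unirradiated mice. It was 301 to 359 in young irradiated mice 1, 3 and 6 but 19007, 40188 and 21326 in mice 2, 4 and 5. It was 280 to 422 in old irradiated mice 1, 4 and 6 but 16713, 18960 and 24084 in mice 2, 3 and 5. Between 4 and 6 of the 12 markers were well above background in old unirradiated mice, between 5 and 12 in young unirradiated mice, and between 7 and 12 in the irradiated groups. The summed level of 10 macrophage markers of spleen and liver was 52.3 to 469 in young and 37.1 to 257 in old unirradiated mice, and 782 to 3031 in young and 53.5 to 2146 in old irradiated mice. The summed level of 6 B cell markers was 1531 to 1908 in young unirradiated and 199 to 578 in young irradiated mice. B cell sums thus did not overlap between doses in young mice, and neither did the macrophage sums. That of 6 T cell markers was 421 to 775 and 238 to 535 in the same groups, and 406 to 1312 and 270 to 943 in old mice. That of 6 neutrophil markers was 1442 to 3365 and 3851 to 11250 in young mice, and 5253 to 15263 and 5195 to 28765 in old mice. The part of RNA from these other cell types in the results was not tested.

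The probes measured short stretches of each transcript, on the mm9 build named in the files. The first 30 of 60 bases are shown for the Slc4a1 probe, for both Epb42 probes and for Sptb, the one member called higher after radiation. They lie at chr11:102210256-102210315, chr2:120844440-120844499 (main Epb42 probe), chr2:120849386-120849445 (other Epb42 probe) and chr12:77682089-77682148, all on the minus strand.
Slc4a1 probe: cccacaaggtctaagaaaagcgtttgccat
Epb42 main probe: taacataggacctgaaagaatagactaaac
Epb42 other probe: gagttttgttgtctgggtaacagtgggcta
Sptb probe: cactcgacacactggactgactttgtggga

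Promoter windows of 6 of the 8 members (all but Slc4a1 and Ank1) were matched by symbol in RefSeq (GRCm38.p6), and the 250 bases before the start were searched on both strands for GATAA, the core of the GATA factor motif, and CCNCNCCC, a motif of Klf factors. For Rhag and Kel the window reaches slightly into the gene span, which starts at chr17:40811099 for Rhag and, on the minus strand, at chr6:41704334 for Kel. GATAA was in 22.6% and CCNCNCCC in 45.9% of 32851 promoter windows of that length. GATAA was found once in Epb42, Rhd, Rhag and Klf1 and in 2 places in Kel, and not in Sptb. CCNCNCCC was found in the Sptb window alone among the 6, in 3 places, some of them overlapping. The windows of Epb42, Rhd and Kel, which fell after irradiation of young mice, and of Sptb, which rose, are shown 5′ to 3′ with both motifs in capitals. They are chr2:121036878-121037127 (Epb42, minus strand), chr4:134864286-134864535 (Rhd, plus strand), chr6:41704326-41704575 (Kel, minus strand) and chr12:76710548-76710797 (Sptb, minus strand).
Epb42: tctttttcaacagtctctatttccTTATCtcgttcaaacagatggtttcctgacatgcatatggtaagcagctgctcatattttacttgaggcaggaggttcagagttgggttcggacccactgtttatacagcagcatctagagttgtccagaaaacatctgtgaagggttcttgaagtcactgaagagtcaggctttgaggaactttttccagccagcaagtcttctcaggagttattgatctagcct
Rhd: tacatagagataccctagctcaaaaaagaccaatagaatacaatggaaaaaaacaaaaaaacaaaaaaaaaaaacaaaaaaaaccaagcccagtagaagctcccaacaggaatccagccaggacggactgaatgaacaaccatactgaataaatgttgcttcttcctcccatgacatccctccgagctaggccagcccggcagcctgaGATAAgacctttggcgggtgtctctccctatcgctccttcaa
Kel: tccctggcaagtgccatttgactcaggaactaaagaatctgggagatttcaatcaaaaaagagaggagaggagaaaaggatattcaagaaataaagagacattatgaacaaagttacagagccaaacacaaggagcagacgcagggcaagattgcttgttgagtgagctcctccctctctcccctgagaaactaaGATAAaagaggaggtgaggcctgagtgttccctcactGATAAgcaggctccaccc
Sptb: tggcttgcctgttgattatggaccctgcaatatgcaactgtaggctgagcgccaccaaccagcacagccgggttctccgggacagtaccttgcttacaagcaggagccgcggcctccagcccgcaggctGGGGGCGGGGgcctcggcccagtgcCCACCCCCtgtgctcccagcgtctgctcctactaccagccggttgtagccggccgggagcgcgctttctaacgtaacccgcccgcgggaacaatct
A match is a run of letters and not a binding site, and no binding was measured.

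**Figure D1:**
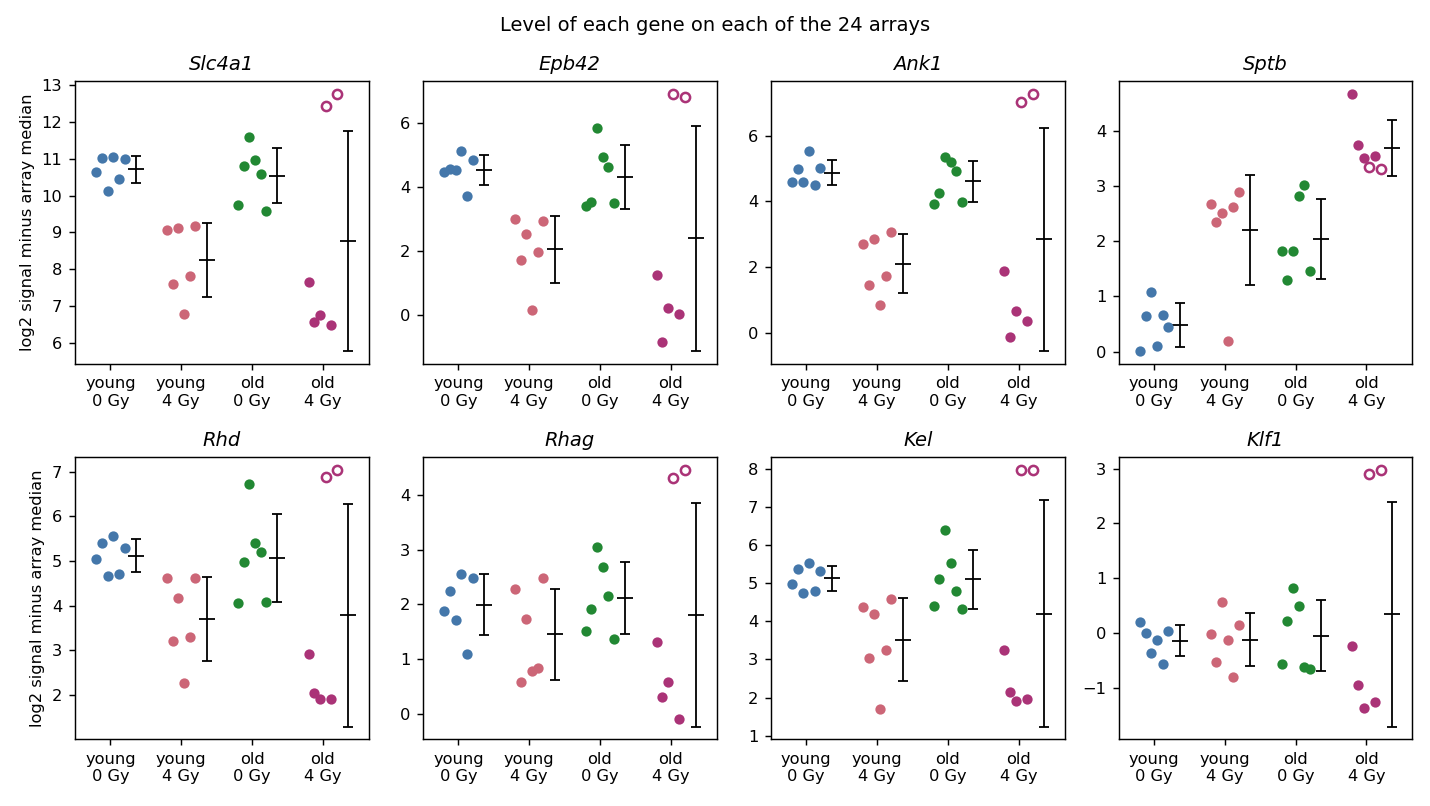
Level of each of the 8 genes on each array, as log2 signal minus array median (vertical axis), by group (horizontal axis; 0 Gy is unirradiated). Each point is 1 mouse, the bar is the group mean ± SD over 6 mice, and open circles are old irradiated mice 4 and 6. In 7 panels the open circles lie above the other 4 old irradiated mice, and in the Sptb panel they lie below them.

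Radiation of young mice was followed by lower levels of 5 of the 8 genes and a higher level of 1. Slc4a1, Epb42, Ank1, Rhd and Kel fell, Sptb rose, and Rhag and Klf1 did not pass the test, which was limma over 17802 genes at an unadjusted p under 0.005 and an adjusted p under 0.05. Of all genes tested, 21.1% were called lower and 14.3% higher in this comparison. The 5 genes that fell did so without overlap between the groups, as did 15.2% of all genes. The median difference of the members was -1.51 on the log2 scale, beside -0.20 over all genes. With normexp background correction none of the 6 calls remained (7.09% of all genes were called), 1 (Sptb) remained in a fit of all 24 arrays (22.4%) and 1 (Ank1) with slide as a block (10.2%), and the 6 genes had the same directions in each.

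The genes of the band 3 and ankyrin complex showed the largest differences among the members in young mice. Slc4a1, the anion exchanger, had a lowest, median and highest level of 10.12, 10.82 and 11.04 in unirradiated mice, and of 6.77, 8.44 and 9.16 in irradiated mice. Every irradiated mouse was below every unirradiated mouse, and the difference of -2.45 (SE 0.40) was a 5.47-fold lower signal (adjusted p = 0.000327). Ank1, the adaptor between band 3 and spectrin, had levels of 4.51, 4.79 and 5.53 in unirradiated and of 0.83, 2.21 and 3.06 in irradiated mice. Its difference of -2.77 (SE 0.36) was the largest of the 8, a 6.83-fold lower signal (adjusted p = 8.19e-05). Again no values overlapped. The main probe of Epb42, protein 4.2, gave 3.72, 4.54 and 5.11 in unirradiated and 0.17, 2.25 and 3.0 in irradiated mice. It fell by 2.48 (SE 0.42, adjusted p = 0.000471). The other Epb42 probe, which was well above background on 17 arrays, differed by -1.45 (SE 0.52, adjusted p = 0.036 among 22482 probes), and its unadjusted p of 0.015 did not pass.

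Sptb, the beta chain of red cell spectrin, went the other way. Its lowest, median and highest levels were 0.01, 0.54 and 1.08 in unirradiated mice and 0.19, 2.56 and 2.89 in irradiated mice. In 5 of the 6 irradiated mice the level was 2.34 or more, above every unirradiated mouse, while mouse 4, at 0.19, lay among the unirradiated mice. The difference was 1.71 (SE 0.40), a 3.28-fold higher signal (adjusted p = 0.00359).

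Of the 3 genes of blood group proteins, Rhd and Kel fell in young mice and Rhag did not pass. Rhd, a channel-like protein of the Rh family, had levels of 4.67, 5.17 and 5.55 in unirradiated and of 2.26, 3.74 and 4.63 in irradiated mice, a difference of -1.41 (SE 0.37, adjusted p = 0.00784). The gap between the 2 groups was narrow, from 4.63 to 4.67. Kel, an endopeptidase that carries the Kell antigen, had levels of 4.75, 5.16 and 5.52 in unirradiated and of 1.71, 3.72 and 4.58 in irradiated mice, a difference of -1.60 (SE 0.42, adjusted p = 0.00701). Leaving out 1 of 5 single mice (young unirradiated 2, 4 or 6, or young irradiated 2 or 5) ended the call of Rhd (adjusted p 0.0181 to 0.0197), and leaving out 1 of 4 of those mice (all but young irradiated 5) ended the call of Kel (adjusted p 0.0164 to 0.0175). Rhag, the ammonia channel subunit that Rh proteins need to reach the membrane, ranged from 1.09 to 2.56 in unirradiated and from 0.57 to 2.48 in irradiated mice. The groups overlapped, and the difference was -0.54 (SE 0.37, adjusted p = 0.251). Klf1, the transcription factor, differed by 0.01 (SE 0.23, adjusted p = 0.97), with means of -0.14 ± 0.28 and -0.13 ± 0.49 (SD, n = 6). It was well above background in 4 of 6 mice in each of these groups.

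**Figure D2:**
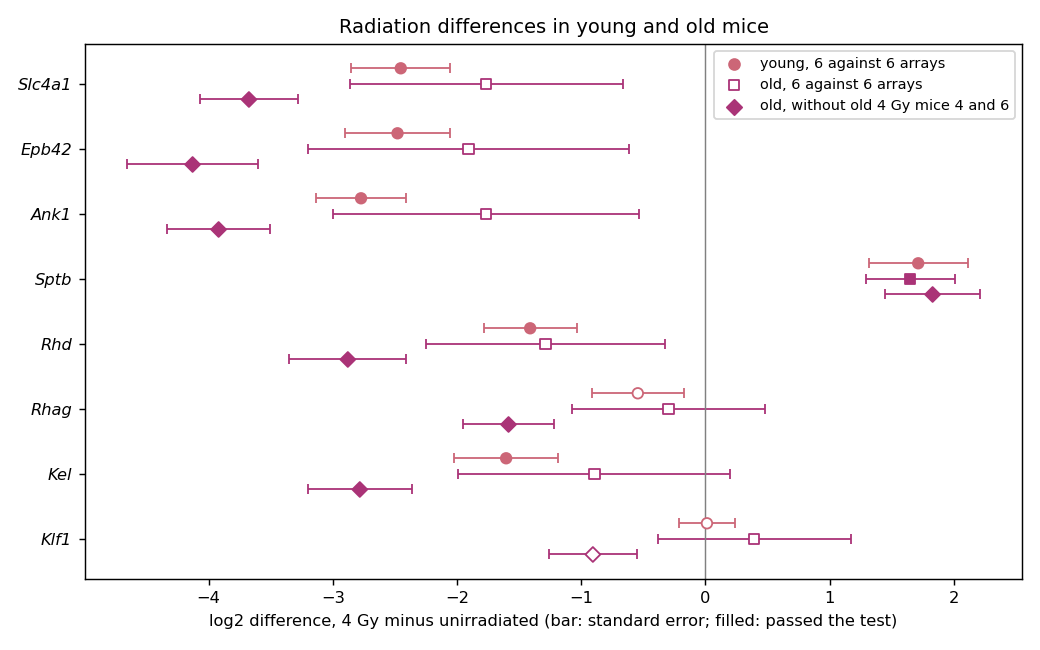
Difference between 4 Gy and unirradiated mice for each gene, in log2 units (horizontal axis, bar ± SE), in young mice, in old mice, and in old mice without irradiated mice 4 and 6. Filled symbols passed the test. Sptb lies to the right of 0 in the 3 comparisons (1.65 to 1.83), and Slc4a1, Epb42 and Ank1 lie at -3.68 to -4.13 in old mice without mice 4 and 6.

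Irradiated young mice fell into those with low and those with high hepatocyte signal, and member levels moved with it. In mice 2, 4 and 5, with high hepatocyte signal, Slc4a1 was 7.60, 6.77 and 7.81, and in mice 1, 3 and 6 it was 9.07, 9.12 and 9.16. Without mice 2, 4 and 5, a setting chosen after seeing the data, Slc4a1 was still lower by -1.59, Epb42 by -1.72, Ank1 by -2.00 and Kel by -0.75, Sptb was higher by 2.20, and these 5 passed (adjusted p 7.9e-05 to 0.015), where 18.6% of all genes were called lower and 14.3% higher. Rhd no longer passed (-0.64, adjusted p = 0.0458), and Rhag was at 0.17 (adjusted p = 0.693). The summed level of the 8 red cell and reticulocyte markers overlapped between the doses in young mice, at 56209 to 135496 in unirradiated and 44429 to 127754 in irradiated mice. Globins and Alas2, the brightest of the 8, weigh most in this sum, and globin RNA had been reduced before labeling. The means of all 8 were lower in irradiated young mice. Hba-a1, an alpha-globin, had means of 14.59 and 14.50, and Ahsp, the chaperone of alpha-globin, had means of 8.45 and 6.62. Whether fewer reticulocytes or less of these RNAs per cell lay behind a lower level cannot be told apart in whole blood.

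Platelet markers were higher in irradiated mice, as Sptb was. Their sums ranked the irradiated mice of each age as Sptb did, except old mice 4 and 6 and a swap of young mice 3 and 5. The summed level of 6 platelet markers was 3277 to 5443 in young unirradiated, 8120 to 19439 in young irradiated, 5585 to 11105 in old unirradiated and 14771 to 34198 in old irradiated mice. Young irradiated mouse 4, the lowest of its group for Sptb, was also the lowest of its group for platelet markers (8120) and the highest for hepatocyte markers (40188). In old irradiated mice 1, 2, 5 and 3 the platelet sums were 25080, 19095, 15987 and 14771, and Sptb was 4.67, 3.74, 3.55 and 3.51. In old irradiated mice 4 and 6, by contrast, the platelet sums were the highest of the 24 arrays (32092 and 34198). Sptb was the lowest of its group there (3.34 and 3.31). As a mean log2 level, the same markers were at 11.13 and 11.03 in mice 4 and 6, below mouse 1 (11.23). The arrays of mice 4 and 6 had the lowest medians (8.66 and 8.84), to which these levels are relative. The part of platelet RNA in the Sptb level was not tested.

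**Figure D3:**
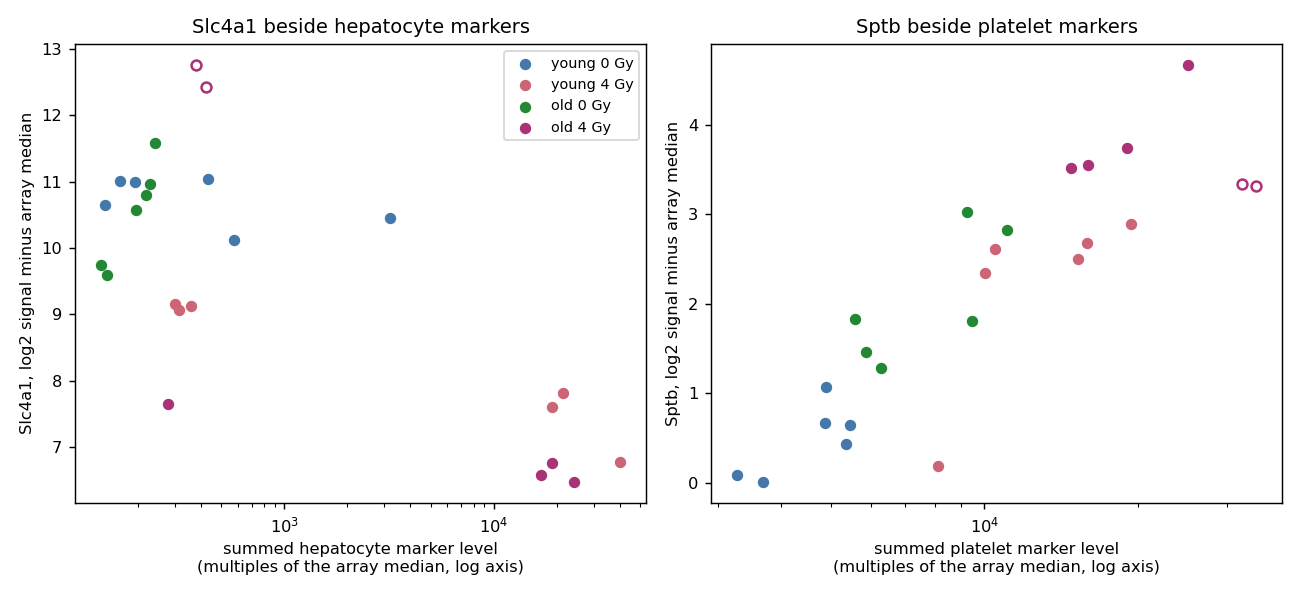
Left, log2 level of Slc4a1 (vertical axis) against the summed level of 12 hepatocyte markers (horizontal log axis, multiples of the array median) on 24 arrays. Right, log2 level of Sptb against the summed level of 6 platelet markers. Open circles are old irradiated mice 4 and 6; the 6 arrays with hepatocyte sums from 16713 to 40188 have Slc4a1 at 6.48 to 7.81.

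In old mice only Sptb passed the test after radiation. Its levels were 1.29, 1.82 and 3.02 in unirradiated and 3.31, 3.53 and 4.67 in irradiated mice, with no overlap, and it rose by 1.65 (SE 0.36), a 3.14-fold higher signal (adjusted p = 0.00452). It was at 1.14 after normexp background correction (adjusted p = 0.154) and at 1.97 with slide as a block (adjusted p = 0.109), where the call was lost. The other 7 genes differed by -1.91 to 0.39, with standard errors of 0.78 to 1.29 and adjusted p from 0.229 to 0.782. Of all genes tested, 17.4% were called lower and 7.49% higher.

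Old irradiated mice 4 and 6 lay far from the other 4 in these genes, and without them the standard errors of the 7 genes were 0.35 to 0.53. Slc4a1 was 12.43 and 12.76 in these mice, 6.48 to 7.65 in the other 4 and 9.59 to 11.57 in old unirradiated mice. In mice 4 and 6 all 8 members were above all 6 old unirradiated mice, as were 6088 of 17792 genes, and 7 members (all but Sptb) were above the other 4 irradiated mice, as were 5729 genes. The arrays of mice 4 and 6 had the lowest median signals of the 24, 8.66 and 8.84 beside 14.4 to 44.8 on the others, and levels are relative to that median. On the log2 signal without centring, 6 members were still above all old unirradiated mice in both, while Sptb (6.45 and 6.46, beside a highest value of 7.61) and Rhd (10.003 and 10.19, beside 10.58) were not. The part of the low medians in these levels was not tested. The summed level of the 8 red cell and reticulocyte markers was 251362 and 259722 in mice 4 and 6, 49091 to 98460 in the other 4, and 68863 to 138924 in old unirradiated mice, a range that overlaps that of the other 4. Both were low for B cell markers (54 and 61, beside 1753 to 3530 in old unirradiated mice), as were the other 4 irradiated mice (79 to 869).

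Without mice 4 and 6, 7 of the 8 genes passed the test in old mice, 6 lower and 1 higher, where 22.7% of all genes were called lower and 11.7% higher. The 6 that fell had no overlap between the groups, as did 22.8% of all genes. The levels of Slc4a1 in the 4 remaining mice were 6.48 to 7.65, all below the old unirradiated mice, and it fell by 3.68 (SE 0.39), a 12.8-fold lower signal (adjusted p = 0.000106). Epb42 fell by 4.13 (SE 0.53), from 4.30 ± 0.99 (SD, n = 6) to 0.17 ± 0.85 (SD, n = 4), a 17.5-fold lower signal. Ank1 fell by 3.92 (SE 0.41), from 4.61 ± 0.63 (SD, n = 6) to 0.69 ± 0.86 (SD, n = 4), a 15.1-fold lower signal. Among the blood group genes, Rhd fell by 2.88 (SE 0.47), Kel by 2.78 (SE 0.42) and Rhag by 1.58 (SE 0.37, adjusted p = 0.00487). Rhag had not passed in young mice, and the difference between the ages is given below. Klf1 was at -0.91 (SE 0.35, adjusted p = 0.0522), with an unadjusted p of 0.025, and did not pass. Sptb was higher by 1.83 (SE 0.38, adjusted p = 0.00276).

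Leaving out instead old irradiated mice 2, 3 and 5, the 3 with high hepatocyte signal, turned the direction of 6 genes. Slc4a1 was then at 0.41, Epb42 at 0.68, Ank1 at 0.78, Rhd at 0.54, Rhag at 1.25 and Kel at 1.31, none past the test, while Sptb stayed higher at 1.73 (adjusted p = 0.01). In that setting 24.4% of all genes were called lower and 15.8% higher. Mouse 1 was the only old irradiated mouse that belonged to neither set. Its levels of Slc4a1 (7.65), Ank1 (1.88) and Kel (3.26) lay below those of all 6 old unirradiated mice, and its Sptb level of 4.67 was the highest of the 24 arrays.

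One slide of each age held mice of both doses, 2 of each. Within the young slide, 7 genes were lower and Sptb was higher after 4 Gy, with Slc4a1 at -2.38, Epb42 at -1.91, Ank1 at -2.70, Kel at -1.35, Rhd at -1.08 and Sptb at 1.96. Within the old slide, which held irradiated mice 1 and 2 but not 4 and 6, 6 genes were lower, with Slc4a1 at -2.97, Epb42 at -3.85, Ank1 at -3.58, Rhd at -2.17, Kel at -1.87 and Rhag at -0.94. Klf1 was at 0.05 there and Sptb at 1.97. With 2 against 2 mice, none of the 8 passed in young mice, where 0.332% of all genes were called lower and 0.309% higher. In old mice Slc4a1, Epb42 and Ank1 passed as lower, where 6.25% of all genes were called lower and 5.84% higher.

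Without radiation, 1 of the 8 genes passed the test between old and young mice. Sptb was at 2.04 ± 0.72 (SD, n = 6) in old and 0.49 ± 0.40 (SD, n = 6) in young mice, with no overlap, a difference of 1.55 (SE 0.30, adjusted p = 0.000487). The other 7 differed by -0.26 to 0.12, with adjusted p from 0.396 to 0.94. In this comparison 48.4% of all genes were called higher and 15.4% lower, and the median over all genes was 0.63. Relative to that median, the other 7 were at -0.51 (Rhag) to -0.89 (Ank1), so their near-zero differences depended on the centring. Ank1 was at -0.78 on the 75th percentile (limma adjusted p = 0.0379) and -0.92 after quantile normalization (0.0182). On the median of spots well above background on all arrays it was at -0.85 (0.024). None of the 7 was called in these scalings. Relative to the median over all genes, Sptb was higher by 0.92. The call was lost in 4 alternatives: Sptb was at 1.03 with arrays scaled on the 75th percentile (adjusted p = 0.0151, unadjusted p no longer under 0.005), at 0.96 on the median of spots well above background on all arrays (adjusted p = 0.0225), at 1.12 in the deposited values (adjusted p = 0.022) and at 0.34 after normexp background correction (adjusted p = 0.9996). Platelet markers, at 5585 to 11105 in old and 3277 to 5443 in young mice, did not overlap either. The other Epb42 probe was lower in old mice by -1.17 (SE 0.26, adjusted p = 0.00113 among 22482 probes) while the main probe was at -0.23 (SE 0.39) and did not pass. The difference between the probes was not tested.

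Among irradiated mice, no member passed the test between old and young, in a comparison where 2% of all genes were called. Sptb was 3.31 to 4.67 in old and 0.19 to 2.89 in young irradiated mice, without overlap, and the difference of 1.49 (SE 0.44) had an adjusted p of 0.0914. Without old irradiated mice 4 and 6, 28.4% of all genes were called but again no member. The 7 genes other than Sptb were then lower in old mice by -1.88 (Epb42) to -0.83 (Klf1), with unadjusted p from 0.0066 to 0.0582, and Sptb was higher by 1.67 (unadjusted p = 0.00654).

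The difference between the ages in the response to radiation was tested as an interaction. No member passed, and 0% of all genes did, although 4191 had an unadjusted p under 0.05 in limma and the lowest adjusted p was 0.0607. The response of Sptb differed by -0.07 (SE 0.55) between old and young mice. For the other 7 genes the interaction was 0.12 to 1.01, with standard errors of 0.85 to 1.44. Without old irradiated mice 4 and 6, 0.152% of all genes passed and no member did. The 7 genes then had interactions of -1.65 (Epb42) to -0.92 (Klf1), all toward a larger fall in old mice, with unadjusted p from 0.0288 to 0.074 and adjusted p from 0.28 to 0.385. Rhag, which passed in old but not in young mice, had an interaction of -1.04 (SE 0.55, adjusted p = 0.383) there, so that its responses at the 2 ages were not shown to differ. Leaving out old irradiated mice 2, 3 and 5 instead, the interactions of the 7 genes were positive, at 1.79 (Rhag) to 3.56 (Ank1), with standard errors of 0.67 to 1.14, and Ank1 passed (adjusted p = 0.00796) in a setting where 33.9% of all genes did. The sign of the interaction thus depended on which irradiated mice were left out.

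The 7 genes other than Sptb moved together from mouse to mouse. After the mean of each group was subtracted, the 21 pairs among them had Pearson correlations of 0.915 to 0.993 over 24 arrays, and of 0.541 to 0.967 over the 22 arrays left without old irradiated mice 4 and 6. The points share array, RNA sample and scaling, and these values are a description. Sptb had correlations of -0.15 to 0.09 with the 7 others over 24 arrays and of 0.08 to 0.65 over 22. The 10 genes outside the 8 whose levels followed the members' mean most closely had correlations of 0.992 to 0.995 within groups. They were Ube2c, a transcript named ENSMUST00000203939, Hagh, Ahsp (the chaperone of alpha-globin), Hscb, Nt5c3, Ube2b, Tspan33, Cyp4b1-ps2 and Car2 (a red cell carbonic anhydrase), and over 22 arrays their correlations were 0.962 to 0.984.

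**Figure D4:**
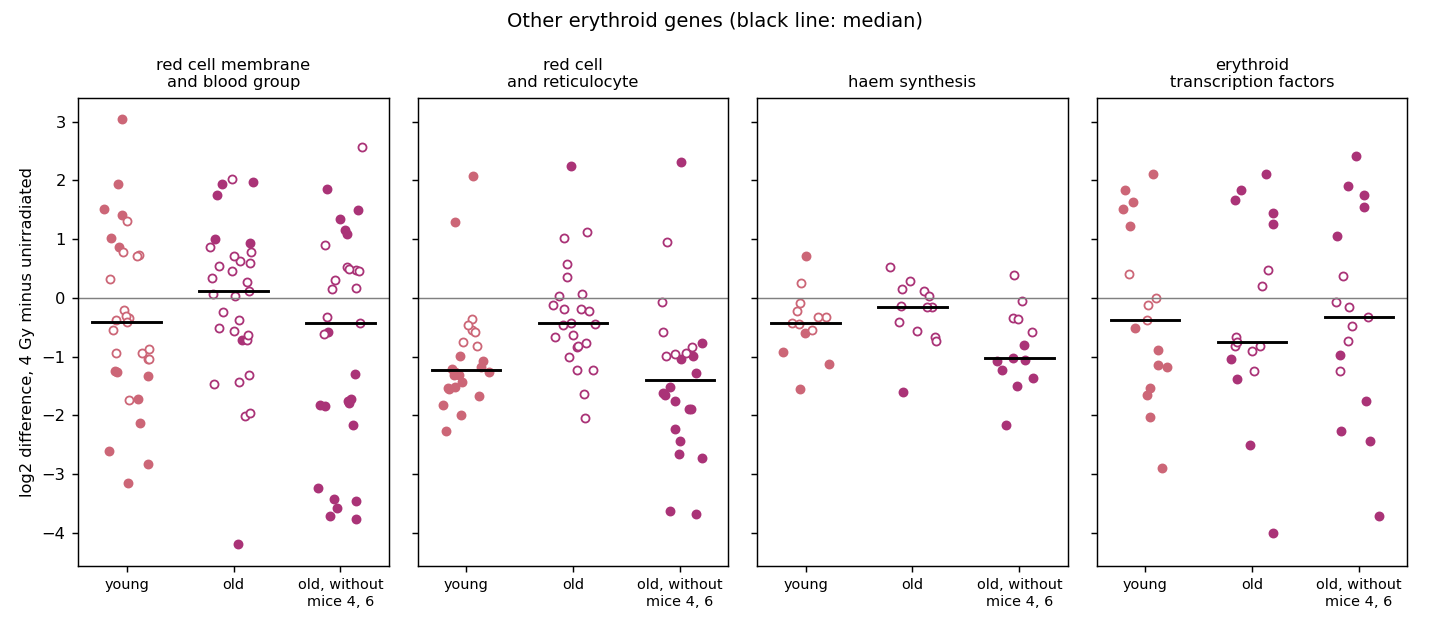
Difference between 4 Gy and unirradiated mice, in log2 units (vertical axis), for the tested genes of 4 erythroid lists without the members, in young mice, old mice, and old mice without irradiated mice 4 and 6. Each point is 1 gene, filled points passed the test and black lines are medians. In the red cell and reticulocyte list the median is -1.23 in young and -1.40 in old mice without mice 4 and 6.

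Other genes of the red cell membrane and blood groups went both ways. Of 31 tested in young mice, 8 were called lower and 6 higher, beside 21.1% and 14.3% of all genes. Their median was -0.41, beside -0.20 over all genes. Mpp1, a palmitoylated scaffold of the membrane skeleton, fell by 1.71 (SE 0.24). Epb41, protein 4.1 of the spectrin and actin junctions, fell by 1.26 (SE 0.35, adjusted p = 0.0103). Tspo2, an erythroid membrane protein of the translocator family, was at -1.05 (SE 0.38, adjusted p = 0.0376) and did not pass. Tpm3, a tropomyosin, rose by 1.01 (SE 0.16), and Cd47, the surface signal against uptake by macrophages, was at 0.73 (SE 0.27, adjusted p = 0.0365) and did not pass. Of genes named after their values were seen, Gypc (glycophorin C) was higher by 1.41 and the water channel gene Aqp1 by 1.93 in young mice, and by 1.75 and 1.98 in old mice. In old mice 2 of the 31 were called lower and 5 higher, beside 17.4% and 7.49% of all genes. Without mice 4 and 6, 14 were called lower and 5 higher, beside 22.7% and 11.7% of all genes. Mpp1 was then at -2.17, Tspo2 at -1.84 and Epb41 at -1.78.

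Of 24 reticulocyte and red cell genes, 16 were called lower in young mice (21.1% of all genes) and 2 higher (14.3%), with median -1.23. These calls were mostly lost in 4 alternatives: 1 was lower and 2 higher in a fit of all 24 arrays, 2 were higher and none lower after normexp background correction, 1 was higher and none lower with slide as a block, and none was called within the shared slide. Of all genes, 22.4% were called in the fit of all 24 arrays, 7.09% with normexp and 10.2% with slide as a block. Within the shared slide 0.332% were called lower and 0.309% higher. The ubiquitin ligase gene Mkrn1 fell by 1.18 and Tent5c, a poly(A) polymerase, by 1.31. Isg20, an exonuclease, was at -0.37 and Ube2l6, a conjugating enzyme, at -0.58, and neither passed. In old mice none of the 24 was called lower and 1 was called higher (Epor, the erythropoietin receptor, at 2.25, named after its value was seen), with a median of -0.43. Of all genes, 17.4% were called lower in old mice and 7.49% higher. Without mice 4 and 6, 16 of the 24 were called lower (22.7% of all genes) and 1 higher (11.7%), with a median of -1.40.

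Of 13 genes of haem synthesis, 4 were called lower in young mice (21.1% of all genes) and 1 higher (14.3%), with median -0.43. Fech, which inserts iron into the ring, fell by 1.13 (SE 0.33), the mitochondrial iron importer gene Slc25a37 by 1.54 (SE 0.36) and Urod, a decarboxylase of the pathway, by 0.92 (SE 0.16). Alas2, the first enzyme of the pathway in red cells, was at -0.32 (SE 0.32, adjusted p = 0.437), and Slc25a38, a glycine carrier, at -0.08 (SE 0.15). In old mice 1 was called lower (17.4% of all genes) and none higher (7.49%). Without mice 4 and 6, 8 were called lower (22.7% of all genes), with Alas2 at -0.59 (SE 0.27) still not past the test.

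The erythroid transcription factors were split in young mice, with 8 of 17 called lower (21.1% of all genes) and 5 higher (14.3%). Their median was -0.37. The 5 that rose, named after their values were seen, were Tal1 (2.11), Gfi1b (1.84), Gata1 (1.64), Nfe2 (1.52) and Runx1 (1.22). Platelet precursors also use these factors, and the part of platelet RNA in their levels was not tested. In old mice these 5 were higher as well, by 2.11, 1.67, 1.83, 1.45 and 1.27 in that order, and each passed. There 7.49% of all genes were called higher. Gata1, the GATA factor of red cells and platelets, was 5.36 to 6.00 in young unirradiated and 6.16 to 7.87 in young irradiated mice, with no overlap. Among those that fell in young mice, Lmo2, which bridges Tal1 and Gata1, fell by 1.66 (SE 0.27), and E2f2, a cell cycle factor of late red cell precursors, by 1.53 (SE 0.36). Klf3, a relative of Klf1 that binds the same motif, was at -0.37 (SE 0.19, adjusted p = 0.123).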

How the data were processed

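Blood RNA of 24 mice was hybridized to single-color arrays, 6 per group. The intensity values deposited by the authors, 1 scanner file per array, came from Agilent Feature Extraction 12.0.2 (per the labels), which subtracts background and does not scale arrays to each other. A deposited table of log2 values from the authors was used as an alternative; the exact normalization behind it is not given in the sources used here, its column medians ran from 5.77 to 6.73, and its correlation with the log2 intensities was at least 0.995. Array number, not read depth, sets the precision.

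Spots marked non-uniform were left out, intensities were put on the log2 scale, and each array was centred on the median of its 43020 non-control spots. Probes flagged as non-uniform, or without a positive and significant signal, on 25% of the arrays or more were removed, which kept 24130 of 39429. Probes had to differ from their median by 1.5-fold in 20% of arrays (5), and each gene was represented by its brightest probe, leaving 17802 genes. Groups were compared 2 at a time, and age by radiation in 1 fit of 4 groups, with lmFit and eBayes of limma 3.58.1 in R 4.3.3, two-sided, with Benjamini-Hochberg adjustment over all genes; a call needed p under 0.005 and adjusted p under 0.05. Scripts were tested on simulated data.

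The 8 genes, the lists and the markers were chosen with earlier results of these data known. The genes named are the 8 members, the 5 brightest tested genes of each of 4 erythroid lists, Epb41 and Gata1, and the 10 genes most correlated with the members' mean; a few further genes that this rule names are not reported here. Marker lists were used for hepatocytes, platelets, neutrophils, B cells, T cells, macrophages of spleen and liver, and red cells. Alternatives were other scalings, normexp background correction, other filters and probe choices, trended variances, 1 fit of 24 arrays, slide and replicate blocks, the shared slides alone, leaving out single arrays and, after the data were seen, leaving out sets of old or young irradiated arrays and merging the 2 most similar old unirradiated arrays. Replicate numbers name mice and do not pair them. Promoter sequences and gene symbols are from RefSeq (GRCm38.p6). Blood counts and PCR were not analysed here.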

Additional observations from a re-analysis of the deposited data

Results flagged for a closer look

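Sptb was the gene among the 8 in which a single mouse stood far from its group. In young irradiated mice, the gap between mouse 4 (0.19) and its nearest neighbour (2.34) was 0.796 of the range of the group. In old irradiated mice, the gap between mouse 1 (4.67) and its nearest neighbour (3.74) was 0.684 of the range. Of 32 groups examined (8 genes in 4 groups of 6 mice), 2 passed Dixon's limit, where chance flags about 1 in 20. Without young irradiated mouse 4 the Sptb difference in young mice was 2.12, and the call held when any single array was left out.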

How the results depend on the processing

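Of the 8 genes, 6 were called in young mice, 1 in old mice, 1 between old and young unirradiated mice and none between irradiated ages or for the interaction. In young mice the count was 0 after normexp background correction (7 members tested; Slc4a1 at -1.80, Ank1 at -1.78, lowest adjusted p 0.0593), 1 in 1 fit of all 24 arrays, 1 with slide as a fixed block and 0 within the shared slide, and 5 in the deposited values (Sptb lost, at 1.66 and an adjusted p of 0.026). In old mice it was 0 after normexp, 0 with slide as a fixed block, 3 within the shared slide and 7 without old irradiated mice 4 and 6. Between unirradiated ages it was 0 on the 75th percentile, on the median of spots well above background on all arrays, after normexp and in the deposited values (Sptb at 1.03, 0.96, 0.34 and 1.12). Between irradiated ages it was 1 (Sptb) in 1 fit of all arrays and with slide as a random block. For the interaction it was 1 (Ank1, 3.56) without old irradiated mice 2, 3 and 5. The cause was not tested. Leaving out single arrays gave 4 to 6 calls in young mice and changed no other count.

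Direction was taken as turned when a value changed sign and moved by more than its standard error or passed a test. Without old irradiated mice 4 and 6, Klf1 in old mice turned to -0.91; the difference between irradiated ages turned to -1.39 (Slc4a1), -1.88 (Epb42), -1.41 (Ank1), -1.51 (Rhd), -0.92 (Rhag), -1.21 (Kel) and -0.83 (Klf1), and the interaction to -1.22, -1.65, -1.15, -1.47, -1.04, -1.18 and -0.92 in the same order. Without mice 2, 3 and 5, radiation differences in old mice turned to 0.41 (Slc4a1), 0.68 (Epb42), 0.78 (Ank1), 0.54 (Rhd), 1.25 (Rhag) and 1.31 (Kel), and without young irradiated mice 2, 4 and 5 Rhag in young mice turned to 0.17. Between unirradiated ages Rhag turned to -0.40 on the 75th percentile, -0.22 after quantile normalization, -0.47 on the common median and -0.38 in the deposited values, and Klf1 to -0.43 on the 75th percentile and -0.50 on the common median. None of these was called before or after.

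Scaling moved the median of all genes in old mice from -0.25 to 0.24 (75th percentile) and 0.30 (common median), and the share of calls that were higher from 30.1% to 48.0% and 53.3%. With the replicate number as a block, 5 genes were called in young mice (all but Rhd, at an adjusted p of 0.0185) and the other counts stayed at 1, 1, 0 and 0; deviations of same-numbered mice correlated from -0.60 to 0.58, so the numbers do not pair mice. Merging old unirradiated mice 1 and 6, which differed by 0.178, changed no count. List counts that moved by more than 1.5 times ran in young mice from 1 (shared slide) to 23 (slide as a random block) for the membrane list (14 in the report), 1 to 5 for the transcription factors (13), 0 to 3 for the red cell and reticulocyte list (18) and 0 to 3 for the haem list (5). In old mice they ran from 0 (normexp) to 19 (without mice 4 and 6) for the membrane list (7), 0 to 5 for the transcription factors (9), 0 to 17 for the red cell and reticulocyte list (1) and 0 to 8 for the haem list (1).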
